A study of Mus musculus with 10 samples.

Results

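The genes described here are those of the major histocompatibility complex (MHC) of the mouse, called H2, and of the machinery that prepares peptides for it. They were taken as all probe sets whose platform gene symbol starts with H2- or equals B2m, Cd74, Ciita, Tap1, Tap2, Tapbp, Psmb8, Psmb9, Psmb10, Psme1 or Psme2. This gave 62 of the 12488 probe sets on the array, of which 52 name 1 gene (38 of the 8252 genes so named on the array) and 10 name several genes together. No probe set named Psme2 alone. A probe set is a group of short oligonucleotides that together measure 1 transcript, and 27 of the 62 carry a suffix that marks possible matches to related sequences, among them 21 of the 33 class I heavy chain probe sets.

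RNA from the microdissected membranous labyrinth of the cochlea was measured on 10 single-colour Affymetrix arrays, each loaded with RNA of 8 pooled female mice aged 10 weeks. B6.CAST noise (2 arrays) and 129X1/SvJ noise (3 arrays) mice heard noise 1 octave wide at 10 kHz, at a level of 105 dB SPL, over 1 h, and tissue was taken 6 h after exposure, while B6.CAST control (2 arrays) and 129X1/SvJ control (3 arrays) mice had a sham exposure in the chamber. B6.CAST is a C57BL/6J strain with a CAST segment at the hearing gene Cdh23, and 129X1/SvJ is an inbred strain known for its resistance to noise. The labels call the arrays of a group biological replicates, and the titles of the last array of both 129X1/SvJ groups spell the strain 129XI/SvJ.

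MHC class I molecules pair a heavy chain (such as H2-K1 or H2-D1) with the light chain B2m and show peptides from inside the cell to cytotoxic T cells. These peptides are cut by the proteasome, carried into the endoplasmic reticulum by Tap1 and Tap2 and loaded with the help of Tapbp (tapasin). Class II molecules pair an alpha with a beta chain (H2-Aa with H2-Ab1, H2-Ea with H2-Eb1), travel with the invariant chain Cd74 and exchange it for a peptide with the help of H2-DM. They are carried mainly by macrophages, dendritic cells and B lymphocytes, of which macrophages reside in the cochlea.

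Levels are the deposited signal intensities, which cannot be compared between probe sets. Differences are on the scale of log2(intensity + 16) after quantile normalization, with standard errors (SE) from limma fitted to all 10 arrays, and a difference is called where limma's Benjamini-Hochberg adjusted p over all tested probe sets is under 0.05. Of the 62 probe sets, 47 passed the filter on dim signals and were among the 8695 that were tested. The 15 that did not pass had mean signals of at most 46.3 and are given by level only.

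The arrays were of unequal quality. Gapdh control probe sets at the 3' and 5' ends of the transcript, whose signal ratio is a sign of RNA integrity, gave a ratio of 6.94 on B6.CAST noise array 1 and 29.2 on 129X1/SvJ control array 2, against 0.790 to 1.40 on the other 8. Correlations with the other 9 arrays averaged 0.910 for 129X1/SvJ noise array 1 and 0.943 to 0.955 for the remaining arrays. Of 14 cochlear marker genes, 11 were on the array and all 11 passed the filter. Over both conditions 6 were higher and 5 lower in B6.CAST (median 0.02). At an unadjusted p under 0.05 there were 4 (1331 of all 8695 probe sets), and 1 was called (3.24% of all). The called gene was Dct, a melanin enzyme of strial melanocytes (0.69 ± 0.09, limma adjusted p = 0.00153). The summed signal of the 11 markers (sums are rounded to 4 significant digits throughout) separated the strains, at 61980.0 and 66480.0 on B6.CAST noise, 66910.0 and 70600.0 on B6.CAST control, 48850.0 to 56010.0 on 129X1/SvJ noise and 54370.0 to 59230.0 on 129X1/SvJ control arrays. Its part in the strain differences given here was not tested.

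Promoter windows of 3 class I pathway genes and 2 class II chains are shown because they stand for both classes of MHC molecule, which are compared here. The windows run from 250 bases before to 50 after the start site, are those of RefSeq on GRCm38.p6 (the C57BL/6J genome), and are written 5' to 3' on the gene's strand. H2-Aa lies at chr17:34287774-34288073 on the minus strand and H2-Eb1 at chr17:34305617-34305916 on the plus strand. H2-K1 lies at chr17:34000298-34000597 on the minus strand, H2-D1 at chr17:35262844-35263143 on the plus strand and B2m at chr2:122147437-122147736 on the plus strand. Capitals mark matches, on either strand, to GAAANNGAA (the core of the interferon-stimulated response element), TTCNNNGAA (the gamma-activated site), ATTGG (the Y box), TGACG (the core of the X2 box) and GGGATTCCC (the core of a kappaB site). H2-K1 has 2 listed windows, of which the first is printed.
H2-Aa: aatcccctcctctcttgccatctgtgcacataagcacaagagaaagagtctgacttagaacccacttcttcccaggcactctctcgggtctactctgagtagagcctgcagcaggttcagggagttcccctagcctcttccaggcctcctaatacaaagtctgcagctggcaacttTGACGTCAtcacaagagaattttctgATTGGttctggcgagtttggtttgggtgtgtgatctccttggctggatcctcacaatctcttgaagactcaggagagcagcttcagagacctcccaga
H2-Eb1: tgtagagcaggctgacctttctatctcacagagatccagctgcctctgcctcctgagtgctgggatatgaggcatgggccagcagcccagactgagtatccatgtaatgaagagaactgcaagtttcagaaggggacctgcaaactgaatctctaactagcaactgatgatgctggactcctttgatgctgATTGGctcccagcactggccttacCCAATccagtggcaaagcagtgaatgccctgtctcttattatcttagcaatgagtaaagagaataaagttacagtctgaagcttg
H2-K1: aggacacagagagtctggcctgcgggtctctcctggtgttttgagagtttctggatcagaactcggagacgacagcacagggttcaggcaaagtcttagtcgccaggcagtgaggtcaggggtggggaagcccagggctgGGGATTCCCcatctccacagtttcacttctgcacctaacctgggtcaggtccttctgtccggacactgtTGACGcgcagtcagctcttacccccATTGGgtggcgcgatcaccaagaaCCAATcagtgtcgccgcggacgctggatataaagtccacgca
H2-D1: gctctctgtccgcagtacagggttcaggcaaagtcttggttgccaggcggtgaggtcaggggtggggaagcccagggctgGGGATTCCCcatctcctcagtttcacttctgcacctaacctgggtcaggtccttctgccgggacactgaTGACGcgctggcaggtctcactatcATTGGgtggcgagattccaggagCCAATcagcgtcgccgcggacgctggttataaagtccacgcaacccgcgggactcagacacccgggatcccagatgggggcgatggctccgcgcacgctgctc
B2m: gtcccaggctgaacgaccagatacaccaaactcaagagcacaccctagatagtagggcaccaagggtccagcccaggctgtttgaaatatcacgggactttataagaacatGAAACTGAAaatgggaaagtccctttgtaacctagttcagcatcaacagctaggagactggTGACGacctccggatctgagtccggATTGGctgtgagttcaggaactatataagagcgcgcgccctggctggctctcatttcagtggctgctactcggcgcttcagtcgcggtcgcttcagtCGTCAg
In H2-Aa, TGACG at -74 to -70 from the start site overlaps its reverse complement at -71 to -67, and ATTGG follows at -48 to -44. H2-Eb1 holds ATTGG at -59 to -55 and CCAAT at -35 to -31, and no TGACG in this window. In H2-K1 and H2-D1 the kappaB letters (at -110 to -102 and at -170 to -162) stand upstream of TGACG and ATTGG in the same order. B2m holds GAAACTGAA at -139 to -131, then TGACG at -78 to -74 and ATTGG at -53 to -49.

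Windows were found for 25 of the 38 genes. ATTGG was present in 20 of the 25, against 37.9% of all 27025 promoter windows and 38.2% of the 5249 windows of tested genes. TGACG was present in 10 of the 25, against 21.0% of all windows and 31.8% of those of tested genes. GGGATTCCC was present in 2 of the 25, H2-K1 and H2-D1, and in 100 of all 27025 windows (0.37%, and 0.476% of those of tested genes). GAAANNGAA was in 2 (8.57% of all windows and 6.76% of those of tested genes) and TTCNNNGAA in 3 (8.47% and 6.69%). A match is a description of the letters only. Variants of these patterns were not searched, so a window without a match may still hold a related element.

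The class II chains and the invariant chain were lower in B6.CAST than in 129X1/SvJ cochleae, and 3 of the 4 tested probe sets passed the test, in a comparison that called 3.24% of all 8695 probe sets (1.16% as lower in B6.CAST). Averaged over noise and control arrays, H2-Aa and H2-Ab1 were about 2.44-fold and 2.48-fold lower and Cd74 2.31-fold lower in B6.CAST. H2-Eb1 was 1.71-fold lower without passing the test. In bulk RNA, fewer cells of a type and less RNA per cell cannot be told apart. Whether the probes match the H2 sequences of both strains equally well was not tested, for these or the other H2 genes.

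H2-Aa, the alpha chain of the class II molecule I-A, had signals of 218 and 257 on the B6.CAST noise arrays and 375 and 241 on the B6.CAST control arrays. In 129X1/SvJ it had 972, 710.0 and 671 on the noise arrays and 428, 655 and 782 on the control arrays. Every B6.CAST array lay below every 129X1/SvJ array, in both conditions. The difference was -1.29 ± 0.20 (95% interval -1.72 to -0.85, limma adjusted p = 0.00388, 4 against 6 arrays). It remained called without any single array (adjusted p 0.00266 to 0.0284), and was -1.23 (adjusted p = 0.0512) without the 2 arrays of high Gapdh ratio.

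H2-Ab1, the beta chain of the same molecule, had 114 and 113 on B6.CAST noise and 205 and 102 on B6.CAST control arrays. Its signals were 469.6, 351 and 324 on 129X1/SvJ noise and 248, 404 and 348 on 129X1/SvJ control arrays. The strains again did not overlap, although the first B6.CAST control array came close to the first 129X1/SvJ control array. The difference was -1.31 ± 0.21 (95% interval -1.76 to -0.86, limma adjusted p = 0.00425) and stayed called without any single array (adjusted p 0.00521 to 0.0298). Without both arrays of high Gapdh ratio it was -1.27 (adjusted p = 0.0417).

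Cd74, the invariant chain that guides class II molecules to the endosome, had 645 and 681 on B6.CAST noise and 695 and 827 on B6.CAST control arrays. In 129X1/SvJ its signals were 3176, 1617 and 1553 with noise and 927, 1977 and 1467 in controls, and the first noise array held the highest value. The B6.CAST arrays were all below the 129X1/SvJ arrays and spread much less. The difference was -1.21 ± 0.24 (95% interval -1.74 to -0.68, limma adjusted p = 0.0190). The call was lost without 129X1/SvJ control array 3 and without any one of the 4 B6.CAST arrays (adjusted p 0.00866 to 0.0857 over the 10 arrays left out), and the value was -1.07 (adjusted p = 0.111) without the arrays of high Gapdh ratio.

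H2-Eb1, the beta chain of I-E, had 385 and 452 on B6.CAST noise and 484 and 288 on B6.CAST control arrays, against 1054, 778 and 654 on 129X1/SvJ noise and 388, 629.7 and 872 on 129X1/SvJ control arrays. The first 129X1/SvJ control array, the lowest of its strain for H2-Aa, H2-Ab1 and Cd74 as well, overlapped with the B6.CAST arrays. The difference of -0.78 ± 0.24 had a limma adjusted p of 0.114 and was called only without that array (adjusted p 0.0472 to 0.330 over the 10 arrays left out) and with the replicate number as a block. H2-Ea, the partner alpha chain, is a transcribed pseudogene in RefSeq's C57BL/6J annotation. Its signals were 3.8 and 6.0 on B6.CAST noise, 2.6 and 8.0 on B6.CAST control, 6.1, 7.6 and 23.8 on 129X1/SvJ noise and 3.9, 4.1 and 10.1 on 129X1/SvJ control arrays. H2-Ea and H2-Eb2 (5.1 to 20.7 over all arrays) stayed below the filter in both strains.

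**Figure D1:**
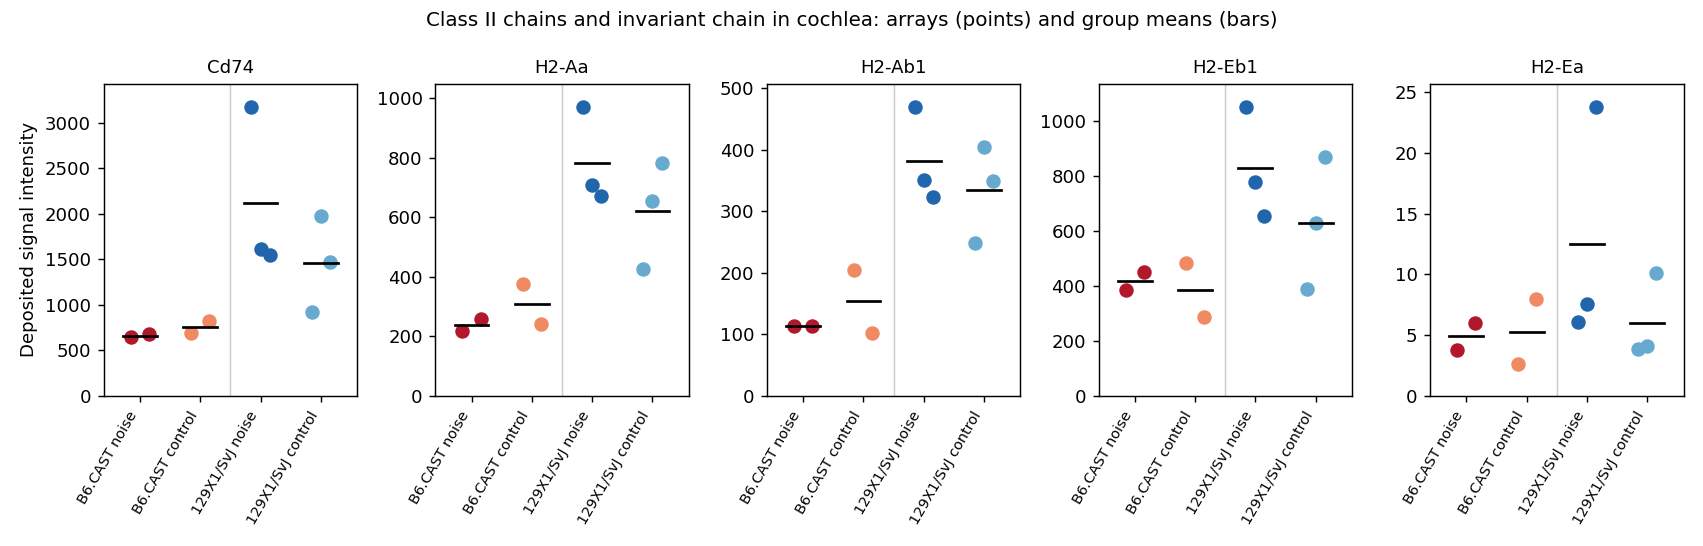
Deposited signal intensity (linear axis from 0, own scale per panel) of Cd74, H2-Aa, H2-Ab1, H2-Eb1 and H2-Ea on each array, with points for arrays and bars for group means, in B6.CAST noise, B6.CAST control, 129X1/SvJ noise and 129X1/SvJ control mice. For Cd74, H2-Aa and H2-Ab1 all 4 B6.CAST arrays lie below all 6 129X1/SvJ arrays, while H2-Ea stays at 23.8 or less on every array.

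The strain difference was split by condition in contrasts that share no array. In noise-exposed mice H2-Aa (-1.63 ± 0.28, limma adjusted p = 0.0163) and H2-Ab1 (-1.55 ± 0.29, limma adjusted p = 0.0223) were called lower in B6.CAST, and Cd74 at -1.58 ± 0.34 just missed the threshold (limma adjusted p = 0.0501, and 0.0321 to 0.314 over the alternatives). These were the 2 of 47 tested members called in noise-exposed mice, where 1.45% of all 8695 probe sets were called (0.575% as lower). The call of H2-Aa was lost without either B6.CAST noise array, and that of H2-Ab1 also without 129X1/SvJ noise array 1 or 2 (adjusted p 0.0136 to 0.154 for H2-Aa and 0.0231 to 0.226 for H2-Ab1 over the 10 arrays left out). In control mice the differences were -0.95 ± 0.28 for H2-Aa, -1.07 ± 0.29 for H2-Ab1, -0.84 ± 0.34 for Cd74 and -0.63 ± 0.33 for H2-Eb1, and none passed (limma adjusted p = 0.216, 0.165, 0.381 and 0.543).

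In control mice limma called 0 of the 47 members (0.92% of all probe sets), with 13 at an unadjusted p under 0.05 (11.1% of all probe sets). The difference of these strain contrasts equals the difference of the noise effects of the 2 strains, and limma called 0 of 47 members and 0.0% of all probe sets, with 4 members at an unadjusted p under 0.05 (2.97% of all probe sets). For H2-Aa it was -0.68 ± 0.40 (95% interval -1.55 to 0.19), for Cd74 -0.73 ± 0.49 (-1.80 to 0.33) and for H2-Ab1 -0.49 ± 0.41 (-1.39 to 0.42). None of these intervals excludes 0.

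Of the other genes of the class II route, none differed between the strains by the test. H2-DMa, a chain of the peptide exchanger, differed by -0.20 ± 0.15 (95% interval -0.54 to 0.14) at its brighter probe set and -0.08 ± 0.42 at its dimmer one. H2-DMb1, the beta chain of the exchanger, differed by 0.13 ± 0.20, H2-DMb2 by 0.17 ± 0.50 and the probe set that names both by 0.27 ± 0.22. Ciita, the coactivator that switches class II genes on, had 54.9 and 133 on B6.CAST noise, 108 and 75.6 on B6.CAST control, 77.3, 97.0 and 87.4 on 129X1/SvJ noise and 83.8, 94.4 and 156 on 129X1/SvJ control arrays. Its groups overlapped, with a difference of -0.03 ± 0.25 (95% interval -0.57 to 0.51). H2-Oa (13.6 to 95.3 over all arrays) and H2-Ob (7.6 to 89.0), chains of a modulator of H2-DM, did not pass the filter.

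The chromosomal order of the class II region in RefSeq is H2-Oa, Brd2, H2-DMa, H2-DMb2, H2-DMb1, Psmb9, Tap1, Psmb8, Tap2, H2-Ob, H2-Ab1, H2-Aa, H2-Eb1, H2-Eb2 and H2-Ea. Read along this order, the strain differences of the tested genes from H2-DMa to Tap2 lay between -0.20 and 0.68, and none was called. Those of the next tested genes were -1.31 for H2-Ab1, -1.29 for H2-Aa and -0.78 for H2-Eb1. The 2 that were called lie side by side.

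Marker genes of the cells that can carry class II were set beside these values. The summed signal of the class II chains and Cd74 was 1370 and 1519 on B6.CAST noise arrays, 1768 and 1483 on B6.CAST control arrays, 3246 to 5686 on 129X1/SvJ noise arrays and 2000.0 to 3678 on 129X1/SvJ control arrays, without overlap of the strains. The sum of 13 macrophage markers was 3976 and 4498, 5904 and 3856, 3983 to 5167, and 2270.0 to 4825 in the same groups, and overlapped between the strains. Of its 9 tested genes 8 were higher and 1 lower in B6.CAST over both conditions (median 0.15). None was called (3.24% of all 8695 probe sets) and none had an unadjusted p under 0.05 (1331 of all). The closest to the test was Cd68, a lysosomal glycoprotein, at 0.22 ± 0.17, and Adgre1, Itgam, Aif1 and Fcer1g did not pass the filter.

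The 8 B lymphocyte markers on the array summed to 668 and 888 on B6.CAST noise arrays, 1278 and 847 on B6.CAST control arrays, 924 to 2100.0 on 129X1/SvJ noise arrays and 720 to 1283 on 129X1/SvJ control arrays. The value of 2100.0 was that of the first 129X1/SvJ noise array, which was also highest for Cd74. Of 7 tested B lymphocyte genes, 2 were higher and 5 lower in B6.CAST over both conditions (median -0.26), 5 higher and 2 lower in controls, and 1 higher and 6 lower with noise, none called. At an unadjusted p under 0.05 there were 0 over both conditions, 0 in controls and 1 with noise (1331, 966 and 920 of all 8695 probe sets). Cd79a, a chain of the B cell receptor complex, differed most, by -0.73 ± 0.36 (limma adjusted p = 0.368), and Cd22 did not pass the filter. The part of B lymphocytes or macrophages in the class II difference was not tested.

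Of the dendritic cell markers, 4 of 6 were tested, with 3 higher and 1 lower in B6.CAST over both conditions. None was called (3.24% of all 8695 probe sets) or at an unadjusted p under 0.05 (1331 of all). The markers on the array summed to 1157 and 1246 in B6.CAST noise, 1017 and 1086 in B6.CAST control, 876 to 1226 in 129X1/SvJ noise and 858 to 1322 in 129X1/SvJ control. Of 8 T lymphocyte markers on the array, Cd3e, Cd3d, Cd3g, Cd8a, Cd8b1, Cd2 and Cd28 did not pass the filter. Cd4, the remaining one, differed by 0.31 ± 0.39.

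Class I heavy chains did not follow the class II chains. Of the 25 tested heavy chain probe sets, 17 were higher and 8 lower in B6.CAST over both conditions, with 2 called higher and 0 called lower. Their median difference was 0.16, that of the 3 tested class II chains -1.29, and that of all 8695 probe sets -0.01. Over all 47 tested members limma called 5 (2 higher and 3 lower), against the 3.24% of all probe sets given above (2.08% called higher). The strains did not overlap for 7 of the 47 members, 4 higher and 3 lower, against 5.96% of all probe sets (3.32% as higher and 2.63% as lower).

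The 2 class I probe sets called higher each match several nonclassical class I genes of the H2-T region, so that no single gene can be named from them. Nonclassical heavy chains are less variable between individuals than H2-K1 and H2-D1, and several serve as ligands of innate-like or natural killer cell receptors. The probe set shared by H2-T-ps and H2-T23 had 698 and 637 on B6.CAST noise, 544 and 640.1 on B6.CAST control, 431, 454 and 396 on 129X1/SvJ noise and 431, 474 and 388 on 129X1/SvJ control arrays. All B6.CAST arrays lay above all 129X1/SvJ arrays. The difference was 0.55 ± 0.13, or 1.46-fold (95% interval 0.27 to 0.83, limma adjusted p = 0.0417).

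The probe set shared by H2-T9, H2-T22 and H2-T10 had 787 and 641 on B6.CAST noise, 682 and 596 on B6.CAST control, 429.7, 446 and 482 on 129X1/SvJ noise and 474, 519 and 449 on 129X1/SvJ control arrays. The strains did not overlap, and the difference was 0.53 ± 0.12, or 1.45-fold (95% interval 0.26 to 0.81, limma adjusted p = 0.0393). Both calls were lost in 9 of 10 fits that left out 1 array and held only without 129X1/SvJ noise array 1 (adjusted p 0.0421 to 0.168 for the H2-T23 probe set and 0.0438 to 0.153 for the H2-T22 probe set). Without the 2 arrays of high Gapdh ratio the differences were 0.54 (adjusted p = 0.203) and 0.47 (adjusted p = 0.237). A further probe set of H2-T9, H2-T22 and H2-T10 differed by 0.45 ± 0.17 (limma adjusted p = 0.223) with overlapping strains.

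H2-K1, a classical class I heavy chain found on nearly all nucleated cells, has 3 probe sets that disagreed. Its brightest had 5922 and 5267 on B6.CAST noise, 4642 and 4857 on B6.CAST control, 5152, 5050.5 and 4896 on 129X1/SvJ noise and 3878, 4896 and 4689 on 129X1/SvJ control arrays, with overlapping strains and a difference of 0.11 ± 0.09 (95% interval -0.08 to 0.31). The middle one differed by 0.07 ± 0.14. The dimmest, which lacks the suffix for related sequences, had 90.0 and 82.5 on B6.CAST noise, 55.0 and 17.8 on B6.CAST control, 160.4, 124 and 95.1 on 129X1/SvJ noise and 86.9, 77.3 and 115 on 129X1/SvJ control arrays. Its difference of -0.74 ± 0.22 ran the other way without a call (limma adjusted p = 0.114), so that H2-K1 has no settled direction here.

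H2-D1, the other classical heavy chain, was higher in B6.CAST at all 3 probe sets (0.20, 0.23 and 0.33), none called. The most separated of them had 3962 and 3809.8 on B6.CAST noise, 3513 and 3785 on B6.CAST control, 3426, 2965 and 3311 on 129X1/SvJ noise and 2400.0, 3024 and 2691 on 129X1/SvJ control arrays. All B6.CAST arrays were above all 129X1/SvJ arrays, by a narrow margin, and the difference of 0.33 ± 0.10 had a limma adjusted p of 0.109. H2-K2 differed by 0.02 ± 0.14 and H2-D4 by 0.25 ± 0.50 at its brighter probe set, the other lying below the filter at 4.2 to 11.3. Both are transcribed pseudogenes in RefSeq's C57BL/6J annotation and were counted with the heavy chains by symbol. Their probe sets carry the suffix for related sequences, so the signal may come from other class I genes.

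Among the other nonclassical genes, H2-M3, which presents formylated peptides of bacteria and mitochondria, separated the strains without a call. Its brighter probe set had 293 and 324 on B6.CAST noise, 338 and 269 on B6.CAST control, 99.2, 225 and 192 on 129X1/SvJ noise and 199, 188 and 220.5 on 129X1/SvJ control arrays, a difference of 0.76 ± 0.25 (limma adjusted p = 0.147). All 4 B6.CAST arrays were above all 6 of 129X1/SvJ. The other 10 tested probe sets of this group (H2-Bl, 2 of H2-M10.1, H2-M2, H2-M9, H2-Q1, H2-Q10, H2-Q4, H2-Q5 and H2-T18) differed by -0.48 (H2-M9) to 0.70 (H2-Q5), none called. H2-Bl and H2-Q5 are transcribed pseudogenes in RefSeq's C57BL/6J annotation, and their probe sets carry the suffix for related sequences. H2-M1, H2-T24, the dimmer probe set of H2-M3 and 1 of H2-M10.1 did not pass the filter.

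Probe sets that name several heavy chain genes accounted for 9 of the 33. Of these, the one shared by H2-Q9, H2-Q7 and H2-Q5 differed by 0.19 ± 0.13, the brighter of 2 shared by H2-T3 and H2-T18 by -0.03 ± 0.16, and the one shared by H2-K2 and H2-Q2 by 0.88 ± 0.64. The 3 that did not pass the filter (shared by H2-Q9, H2-Q7, H2-Q10 and H2-K1, by H2-Q9, H2-Q7, H2-Q4, H2-Q1 and H2-D1, and by H2-T3 and H2-T18) reached at most 53.1 on any array.

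B2m, the light chain of all class I molecules, had 8644 and 8329 on B6.CAST noise and 10213 and 7657 on B6.CAST control arrays. On the 129X1/SvJ arrays it had 7369, 6784 and 8158 with noise and 6328, 5609 and 5601 in controls. The strains overlapped through the noise arrays of 129X1/SvJ, whereas in controls both B6.CAST arrays were above all 3 of 129X1/SvJ. The strain difference was 0.35 ± 0.12 over both conditions (95% interval 0.10 to 0.60, limma adjusted p = 0.149), 0.55 ± 0.16 in controls (adjusted p = 0.218) and 0.16 ± 0.16 with noise (adjusted p = 0.825).

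**Figure D2:**
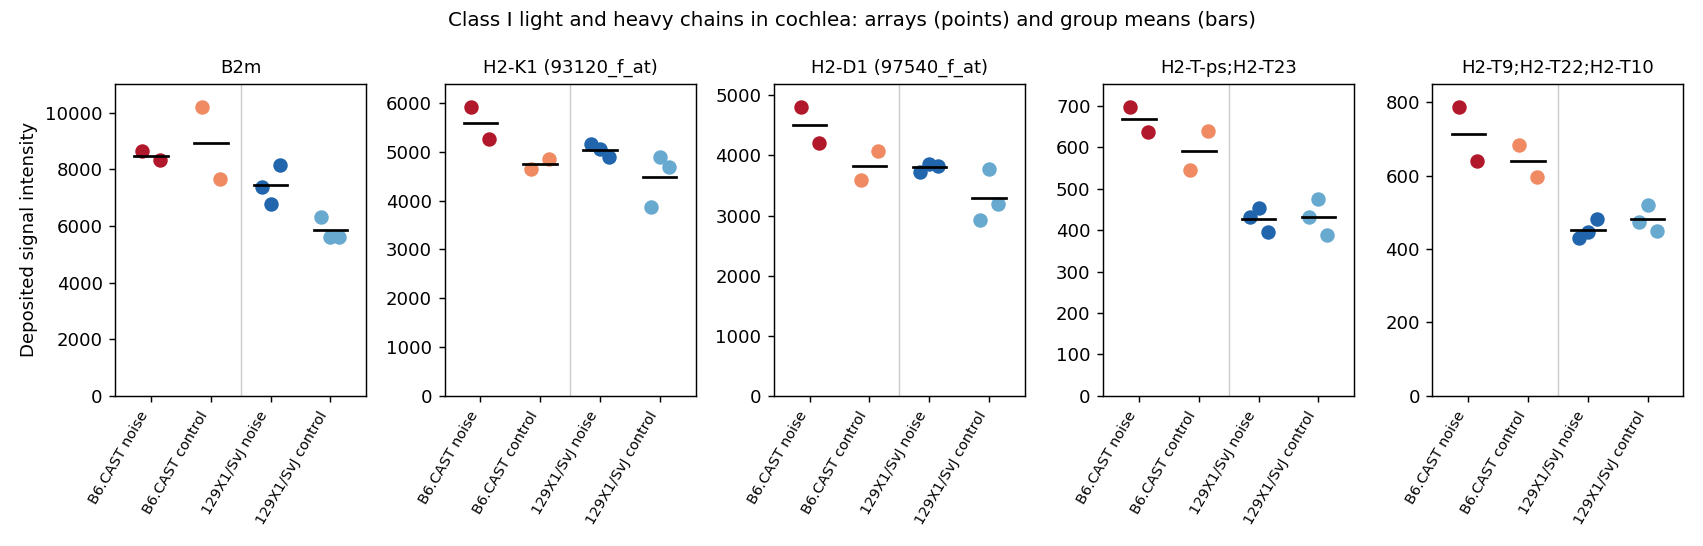
Deposited signal intensity (linear axis from 0, own scale per panel) of B2m, the brightest H2-K1 and H2-D1 probe sets and the 2 class I probe sets called between the strains, with points for arrays and bars for group means. The H2-T-ps;H2-T23 and H2-T9;H2-T22;H2-T10 probe sets lie higher on all 4 B6.CAST than on all 6 129X1/SvJ arrays, while the other 3 panels overlap.

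The peptide transporters and tapasin were all on the higher side in B6.CAST without a call. Tap1 differed by 0.24 ± 0.17 and Tap2 by 0.15 ± 0.16, and Tapbp by 0.31 ± 0.14, 0.26 ± 0.15 and 0.77 ± 0.42 at its 3 probe sets. The second Tap1 probe set did not pass the filter. Of the immunoproteasome subunits, which replace standard proteasome subunits under interferon gamma, Psmb8 had 397 and 402 on B6.CAST noise, 464 and 350.4 on B6.CAST control, 353, 289.7 and 362 on 129X1/SvJ noise and 204, 320.5 and 318 on 129X1/SvJ control arrays. Its difference was 0.42 ± 0.17 (limma adjusted p = 0.246), with 1 B6.CAST control array inside the 129X1/SvJ range.

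Psmb9 differed by 0.68 ± 0.34, Psmb10 by 0.11 ± 0.17 and Psme1, a subunit of the proteasome activator, by -0.12 ± 0.12 at its brighter probe set, the other lying below the filter. In all, the 10 tested probe sets of the class I route other than heavy chains had a median strain difference of 0.29, with 9 higher, 1 lower and none called. H2-Ke6, a steroid dehydrogenase named for its place in the complex, differed by 0.17 ± 0.15 and -0.03 ± 0.26, and H2-Pa did not pass the filter.

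**Figure D3:**
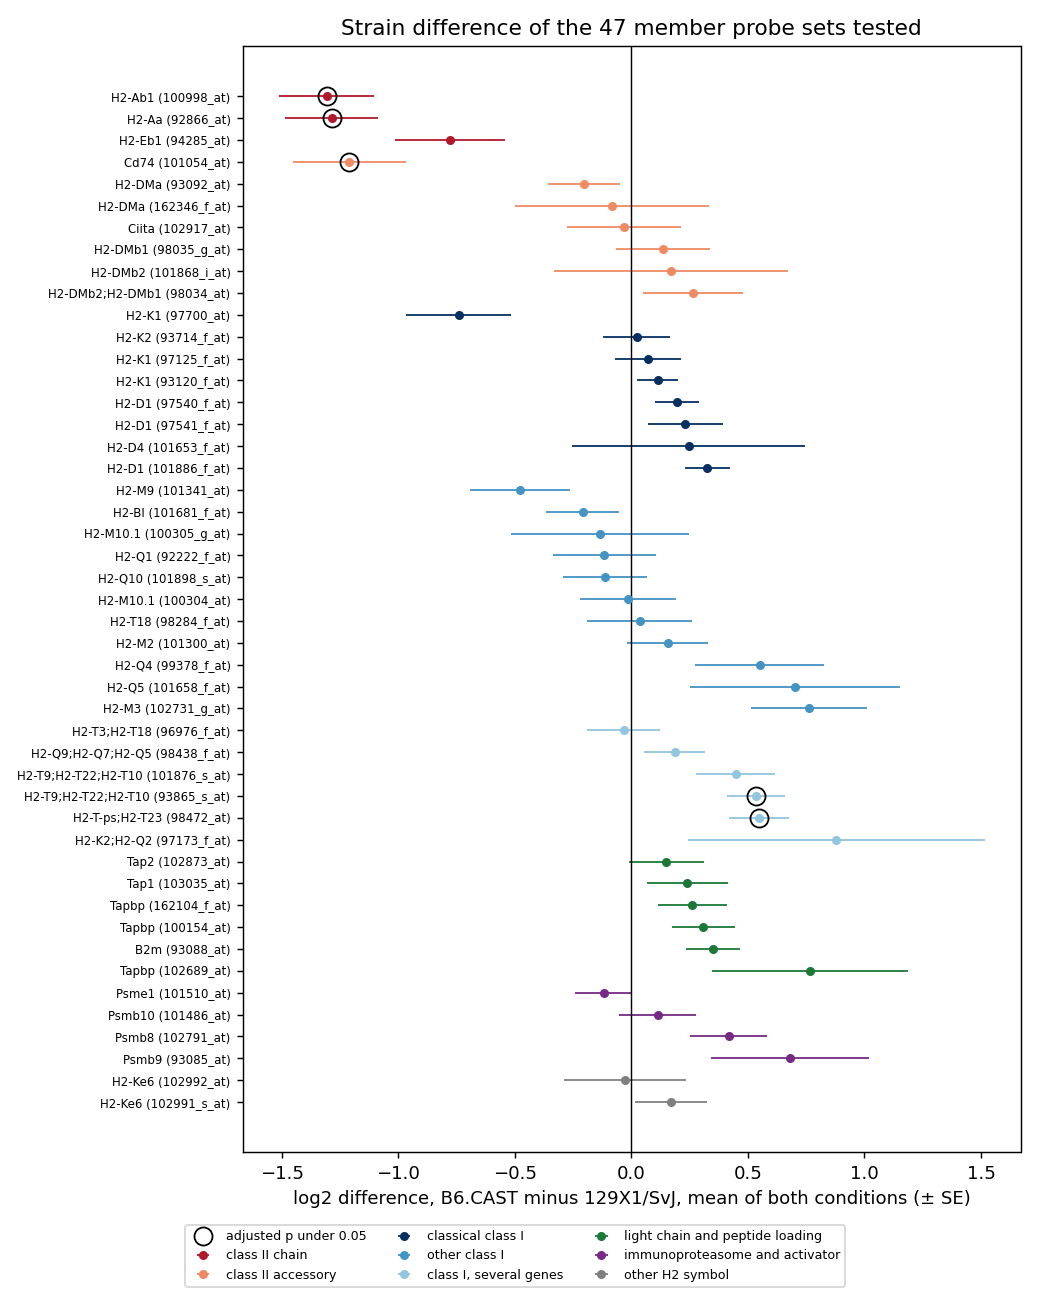
Difference between the strains (B6.CAST minus 129X1/SvJ, mean of both conditions, log2 scale) of the 47 tested probe sets, grouped by role from class II chains at the top, with points for estimates, bars for ± SE and rings for adjusted p under 0.05. The 3 ringed points below 0 are H2-Ab1, H2-Aa and Cd74, and the 2 above 0 are class I probe sets of the H2-T region.

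Noise left no call among these genes 6 h after exposure. In 129X1/SvJ, limma called 0 of 47 members, against 0.506% of all probe sets, and 6 members had an unadjusted p under 0.05 (11.5% of all probe sets). In B6.CAST it called 0 of 47, against 0.046% of all, with 2 at an unadjusted p under 0.05 (2.1% of all). Averaged over the strains it called 0 of 47, against 0.46% of all, with 5 at an unadjusted p under 0.05 (7.63% of all). The median noise effect of the 25 heavy chain probe sets was 0.08 in B6.CAST and 0.15 in 129X1/SvJ, and that of the 3 class II chains -0.32 in B6.CAST and 0.36 in 129X1/SvJ. Both B6.CAST medians rested on single arrays: that of the heavy chains was -0.03 without B6.CAST control array 2 and that of the class II chains 0.04 without B6.CAST control array 1. In 129X1/SvJ the heavy chain median was 0.0018 to 0.17 without single arrays, and the class II median 0.12 to 0.55.

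The member closest to a call was the probe set shared by H2-DMb2 and H2-DMb1, the beta chains of the class II peptide exchanger. In 129X1/SvJ it had 49.6, 43.7 and 66.2 on noise arrays, against 111, 128 and 143 on control arrays. The groups did not overlap, and the noise effect was -1.26 ± 0.27 (95% interval -1.86 to -0.66, limma adjusted p = 0.0951). It passed with array weights and without 129X1/SvJ noise array 3 (adjusted p 0.0439 to 0.530 over the alternatives). In B6.CAST it had 83.6 and 86.2 on noise arrays, against 104 and 118 on control arrays, with an effect of -0.31 ± 0.33. These groups of 2 arrays did not overlap, as for 1130 of all 8695 probe sets in this direction and 1354 in the other. The probe set of H2-DMb1 alone had 302, 177 and 363 on 129X1/SvJ noise and 479, 349.5 and 477 on 129X1/SvJ control arrays, which overlapped (-0.71 ± 0.26, limma adjusted p = 0.368).

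Among the class II chains and Cd74, all 4 tested estimates in 129X1/SvJ were positive, from 0.17 (H2-Ab1) to 0.55 (Cd74), and each had overlapping groups. The Cd74 estimate of 0.55 ± 0.31 (limma adjusted p = 0.504) included the high first noise array, and the other 2 noise arrays lay within the range of the controls. That first array also held the highest value of all arrays for H2-Aa, H2-Ab1 and H2-Eb1. Without single arrays the estimates were 0.12 to 0.55 for H2-Aa and -0.02 to 0.31 for H2-Ab1. Those of H2-Eb1 were 0.15 to 0.72 and those of Cd74 0.20 to 0.79. In B6.CAST the estimates were -0.32 ± 0.31 for H2-Aa, -0.32 ± 0.32 for H2-Ab1, 0.14 ± 0.36 for H2-Eb1 and -0.18 ± 0.38 for Cd74, again none called. Their 95% intervals reached from -1.02 to 0.94.

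In the class I route B2m was higher on all 3 noise arrays of 129X1/SvJ than on its 3 control arrays, by 0.35 ± 0.15 (95% interval 0.03 to 0.67), which missed the test (limma adjusted p = 0.415). The 2 groups of 129X1/SvJ did not overlap for 6 of the 47 members, 4 higher and 2 lower with noise, against 15.8% of all probe sets (7.71% as higher with noise and 8.1% as lower). In B6.CAST the B2m effect was -0.04 ± 0.18. The brightest H2-K1 probe set was higher with noise in both strains (0.22 ± 0.14 in B6.CAST and 0.18 ± 0.11 in 129X1/SvJ), and so was the brightest of H2-D1 (0.24 ± 0.15 in B6.CAST and 0.24 ± 0.12 in 129X1/SvJ), none called. The middle H2-D1 probe set was also higher (0.10 ± 0.15 in B6.CAST and 0.30 ± 0.12 in 129X1/SvJ). The dimmest was lower (-0.16 ± 0.25 in B6.CAST and -0.03 ± 0.20 in 129X1/SvJ), and neither was called. The dim H2-K1 probe set had the smallest unadjusted p of the members in B6.CAST (1.06 ± 0.35, limma adjusted p = 1.00).

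Psmb9, the immunoproteasome subunit encoded next to Tap1, had 87.7, 32.7 and 115 on 129X1/SvJ noise arrays, against 101, 165 and 181 on control arrays, which overlapped (-1.09 ± 0.43, limma adjusted p = 0.395). In B6.CAST it had 235 and 97.9 on noise arrays and 214 and 149 on control arrays (-0.22 ± 0.52). The noise effects of Psmb8 and Tap1 were -0.01 ± 0.26 and 0.44 ± 0.27 in B6.CAST and 0.21 ± 0.21 and 0.15 ± 0.22 in 129X1/SvJ. 

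**Figure D4:**
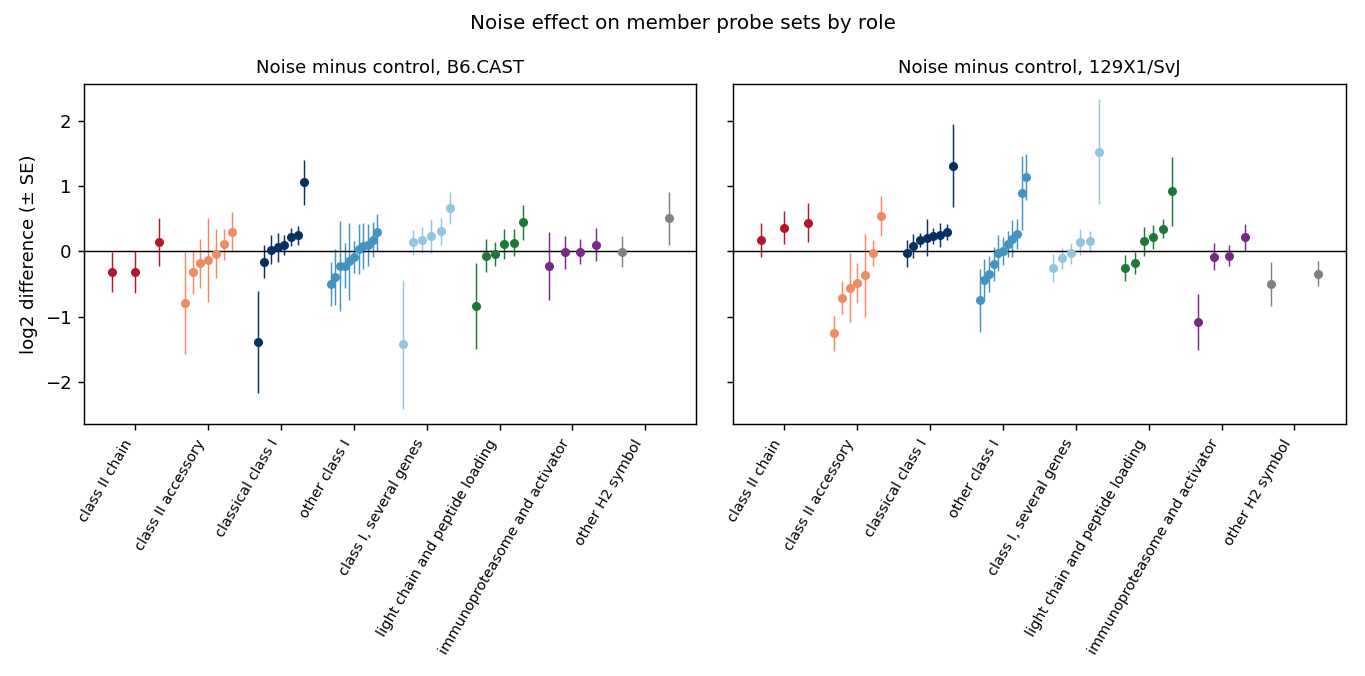
Noise minus control difference (log2 scale, ± SE) of each of the 47 tested probe sets by role, in B6.CAST on the left and 129X1/SvJ on the right, sorted within a role. No point passed the test, and the points with the longest bars include H2-D4 and the H2-K2;H2-Q2 probe set, which have opposite signs in the 2 panels.

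Some of these opposite signs went with the 2 arrays of high Gapdh ratio, which lie in opposite conditions of the 2 strains (B6.CAST noise array 1 and 129X1/SvJ control array 2). H2-Q4, a nonclassical heavy chain, had 758 and 1982 on B6.CAST noise, 2004 and 1377 on B6.CAST control, 1658, 1321 and 1340.4 on 129X1/SvJ noise and 833, 406 and 810.5 on 129X1/SvJ control arrays. Its 2 lowest values were those of these arrays. H2-D4, the probe set shared by H2-K2 and H2-Q2, and 1 of the 3 Tapbp probe sets behaved alike, so that 4 of the 47 tested members (8.51%) were lower on both arrays than on all others, against 4.43% of all 8695 probe sets.

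The H2-K2 and H2-Q2 probe set had 66.3 and 425 on B6.CAST noise, 569 and 463 on B6.CAST control, 426, 302 and 182 on 129X1/SvJ noise and 198, 4.9 and 220.2 on 129X1/SvJ control arrays. The Tapbp probe set concerned had 184 and 879.9, 742 and 801, 752, 431 and 298, and 336, 101 and 335 in the same groups, while the brightest Tapbp probe set had 2484 and 2085 on B6.CAST noise and 1586, 1969.6 and 2086 on 129X1/SvJ control arrays and no drop on either array. In H2-Q4 the noise effect was -0.40 ± 0.43 in B6.CAST and 1.14 ± 0.35 in 129X1/SvJ, a difference of -1.54 ± 0.56 (limma adjusted p = 0.997). Without both arrays the H2-Q4 noise effect was 0.30 (adjusted p = 1.00) in B6.CAST and 0.82 (adjusted p = 0.416) in 129X1/SvJ. RNA integrity and condition cannot be told apart for these 4 probe sets in the fit of all arrays.

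**Figure D5:**
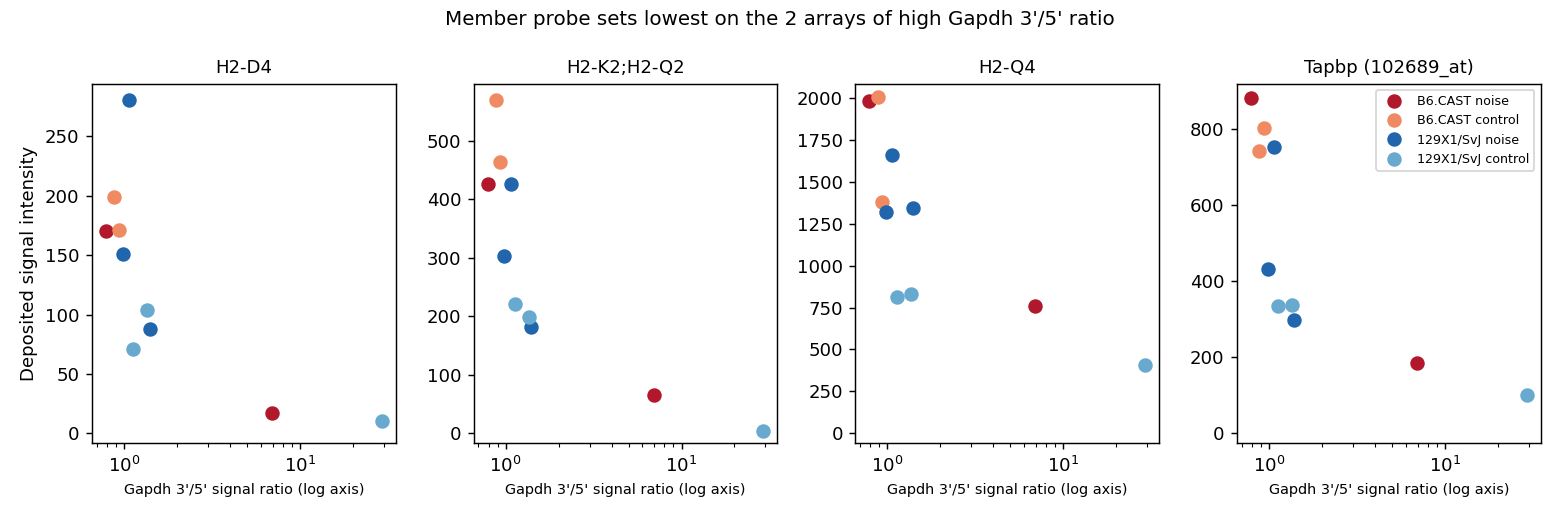
Deposited signal intensity of the H2-D4, H2-K2;H2-Q2, H2-Q4 and Tapbp probe sets (linear axis, own scale per panel) against the 3'/5' signal ratio of Gapdh (log axis), 1 point per array, coloured by group. The arrays at ratios of 6.94 (B6.CAST noise) and 29.2 (129X1/SvJ control) hold the 2 lowest signals in each panel.

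Further genes of antigen processing and its control were taken from a list of 35, of which 27 were on the array and 24 were tested. Between the strains 12 were higher and 12 lower in B6.CAST, with a median near 0. Limma called 1 higher and 0 lower, in a comparison that called 3.24% of all 8695 probe sets (2.08% as higher). The called gene was Ctss, the cathepsin that degrades the invariant chain in antigen presenting cells. It had mean signals of 1677 ± 262 on B6.CAST noise (SD, n = 2), 1564 ± 8.77 on B6.CAST control (n = 2), 927 ± 147 on 129X1/SvJ noise (n = 3) and 790.2 ± 146 on 129X1/SvJ control arrays (n = 3), without overlap of the strains. Ctss was thus higher in B6.CAST (0.92 ± 0.14, limma adjusted p = 0.00394), and stayed called without any single array (adjusted p 0.00228 to 0.0330).

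Next by p were Hfe, a class I-like regulator of iron uptake, at 0.62 ± 0.16 (limma adjusted p = 0.0687), and Ifi30, a lysosomal thiol reductase of class II processing, at -0.47 ± 0.15 (limma adjusted p = 0.148). With noise limma called 0 of the 24 in B6.CAST, in 129X1/SvJ and over both strains, with 2, 6 and 5 at an unadjusted p under 0.05. Of all probe sets, 0.046%, 0.506% and 0.46% were called in these comparisons, and 2.1%, 11.5% and 7.63% had an unadjusted p under 0.05. Irf1, an interferon-regulated transcription factor of class I genes, had mean signals of 623 ± 165 on 129X1/SvJ noise and 276 ± 21.1 on 129X1/SvJ control arrays (SD, n = 3 each), with groups that did not overlap and an effect of 1.07 ± 0.23 (limma adjusted p = 0.0849). Ifi30 had a noise effect of 0.70 ± 0.15 over both strains (limma adjusted p = 0.117). Of the macrophage markers Cd14, a receptor for bacterial lipopolysaccharide, was the one called with noise over both strains (0.86 ± 0.16, limma adjusted p = 0.0389), and the call was lost in 8 of 10 fits that left out 1 array, holding only without 129X1/SvJ noise array 1 or 3 (adjusted p 0.0336 to 0.229).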

How the data were processed

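The authors' deposited values are linear signal intensities, 1 number per probe set and array. They had been scaled, since the mean after trimming 2% at each end was about 499.9 on every array. The scaling software and genome build are not stated in the sources used here. Per the labels, the arrays were hybridised with biotin-labelled cRNA of pooled mice. The platform annotation names 1 gene for 10855 probe sets, several for 396 and none for 1237. All 52 member probe sets of 1 gene were found in RefSeq's table of GRCm38.p6. Another 3 probe sets list a rule gene after other genes and were not taken.

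Values were turned into log2(intensity + 16) and quantile normalized. The 66 control probe sets and the 30% of the others with the lowest mean (signal up to 42.9) were left out. A model of 4 group means was fitted to 10 arrays with limma (version 3.58.1, R 4.3.3), using eBayes with a variance trend and Benjamini-Hochberg adjustment within each of 7 comparisons. Folds of dim genes are understated. P-values measure the spread between pools, and the number of arrays limits precision. The fit was tested on simulated data with independent normal noise and added shifts. Such data hold no array of low quality, so that test does not cover the unequal arrays here.

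Roles follow the gene symbol. Values on every array are given for called members, for B2m, Cd74, H2-Ea and H2-Eb1 and for some of the up to 3 members per role and comparison with the smallest p. Of the pathway list and 5 marker lists (88 entries, 72 found), called genes or up to 3 with the smallest p are named. The members and lists were chosen with earlier results of these data known. As alternatives, the normalization, pseudocount, filter, variance trend, array weights, threshold and choice of arrays were changed, single arrays and the 2 arrays of high Gapdh ratio were dropped, and replicate numbers were used as a block.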

Additional observations from a re-analysis of the deposited data

How the results depend on the processing

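With 2 or 3 arrays a group, leaving out 1 array decided several counts, and an array left alone in its group was assumed to vary like the others. Of the members called between the strains over both conditions (5), 2 to 5 were called without single arrays and 1 without the 2 arrays of high Gapdh ratio. In noise-exposed mice (2 called), the count was 0 to 4 without single arrays, 1 with only noise arrays and 0 without the arrays of high Gapdh ratio. For noise in 129X1/SvJ (0 called), it was 0 to 1 without single arrays, and 1 with array weights and 1 at an adjusted p of 0.10. The class II median in noise-exposed mice was -0.93 with no filter, where more class II probe sets were tested, against -1.55. The counts of the other 4 comparisons were 0 under every alternative run. Of the medians by class, 3 changed sign without 1 array: class II for noise in B6.CAST was 0.04 without control array 1 (-0.32 with all arrays), and class I heavy chains were -0.03 for noise in B6.CAST without control array 2 (0.08) and -0.0046 between control mice without 129X1/SvJ control array 1 (0.11). The cause of these changes was otherwise not tested. Over all probe sets, the count called between the strains was 282, 523 with the replicate number as a block, 460 at an adjusted p of 0.10, 138 to 315 without single arrays and 137 without the arrays of high Gapdh ratio. In noise-exposed mice it was 126, 53 with only noise arrays, 192 with array weights, 201 at 0.10, 26 to 122 without single arrays and 26 without the arrays of high Gapdh ratio. In controls it was 80, 154 with only control arrays, 139 with array weights, 131 at 0.10, 23 to 132 without single arrays and 36 without the arrays of high Gapdh ratio. For noise in 129X1/SvJ it was 44, 71 with array weights, 68 at 0.10, 22 to 46 without single arrays and 22 without the arrays of high Gapdh ratio. For noise in B6.CAST it was 4, with 0 to 7 over the alternatives, and for the mean of the noise effects 40, with 10 to 54. Deviations from the group means of arrays with the same replicate number correlated at -0.17 in B6.CAST and at -0.15, -0.18 and -0.39 in 129X1/SvJ. Those of arrays with different numbers correlated at 0.17 in B6.CAST and at -0.12 to 0.31 in 129X1/SvJ. In groups of 2 or 3 such deviations are tied to each other, so these values cannot decide whether the numbers pair the arrays. With the replicate number as a block, 7 members were called between the strains over both conditions, 3 in noise-exposed mice (133) and 0 for noise in 129X1/SvJ (25) or over both strains (19). The block was fixed in the noise comparisons and random in the strain comparisons, with a consensus correlation of -0.24. A negative correlation narrows the SE of the strain difference over both conditions, so the added calls there depend on that pairing.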
